A study of Mus musculus with 24 samples.

Results

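The class IIa histone deacetylases and the MEF2 transcription factors they bind were followed in mouse brown fat as 7 listed genes, Hdac4, Hdac5, Hdac7, Hdac9, Mef2a, Mef2c and Mef2d, picked as rows of the deposited count table by their mouse symbols. The table holds 12615 genes and 6 of the 7, all of which passed the filter on low counts; Hdac9 is not among its rows, nor is Mef2b, the remaining MEF2 gene. The list was chosen by measured values of these libraries, namely that Hdac4 was lower in the cold and higher under the knockout label, so Hdac4 is described here by its values, with no test in any comparison, and the tests concern the other 5 measured genes.

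BAT RNA came from 24 mice in 4 groups of 6: Cre- at 30°C, BATdKO at 30°C, Cre- at 8°C and BATdKO at 8°C. Every mouse of the study, controls included, is TBLR1 fl/fl and TBL1 fl/fl, that is, homozygous for floxed alleles of 2 corepressor genes, and received tamoxifen. BATdKO mice also carry Ucp1CreERT2, a tamoxifen-activated Cre recombinase under the Ucp1 promoter, which acts in brown adipocytes, so that the other cells of the tissue keep both genes. The labels give females raised at 22°C, tamoxifen at an age of 5 years (the study's methods give weeks), a start of the temperature treatment 3 weeks later, and then 4 days at 30°C or, after a stepwise cooling, 6 days at 8°C. The strain in the study's methods is C57BL6/N, and a figure legend there describes males and fewer days in the cold. The kit reads each transcript once, from its 3′ end, so CPM (reads of a gene relative to library size after normalization) does not grow with transcript length and can be set side by side between genes.

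Class IIa HDACs have little deacetylase activity of their own. They bind MEF2 factors on DNA and bring the NCoR corepressor with HDAC3, the complex to which TBL1 and TBLR1 belong, to MEF2 target genes. Salt-inducible kinases, AMP-activated kinase, protein kinase D and CaM kinases phosphorylate them, 14-3-3 proteins then hold them in the cytoplasm, and protein kinase A, which noradrenaline activates in brown adipocytes through cAMP, inhibits the salt-inducible kinases.

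Library numbers in the labels run in 2 blocks, one with all mice at 30°C and one with all mice at 8°C, so in every cold comparison temperature and library block cannot be told apart. Some libraries stood apart. Total counts ran from 699703 (Cre- 30°C mouse 4) to 11527643. The genes meant to be deleted were higher, not lower, under the BATdKO label at 8°C. The log2 fold change was 0.92 for Tbl1xr1 (SE 0.17, adjusted p = 0.00348, edgeR) and 0.39 for Tbl1x (SE 0.10, adjusted p = 0.0633, edgeR). The Tbl1x call was lost in 9 of 24 fits that left out 1 mouse (adjusted p up to 0.151, edgeR). The floxed exons are not given in the sources used here, so whether the 3′ tags cover them was not tested. A tag outside them checks nothing. At 30°C, Tbl1xr1 had 38.6 CPM in mouse 6 labelled Cre- against 16.4 to 24.6 CPM in the other 5. It had 17.0 CPM in mouse 6 labelled BATdKO against 29.8 to 42.0 CPM in the other 5. Those 2 libraries depart from their group mates, each lying in the range of the other label's 5. The same was seen in Tbl1x, with 53.5 CPM in Cre- mouse 6 against 31.4 to 45.6 CPM in the other 5. In BATdKO mouse 6 Tbl1x had 39.7 CPM against 53.4 to 59.9 CPM in the other 5. A deletion read by the tags would lower Tbl1xr1 under the BATdKO label, so which mice carry a wrong label, if any, cannot be told. Transcripts of skeletal muscle fibres, as the summed CPM of the 12 of 13 listed markers in the table, reached 3861 in mouse 1 and 8865 in mouse 3 of Cre- at 30°C, 10.9 to 391.5 in the other 4 of that group, 31.6 to 683.04 in BATdKO at 30°C, 18.4 to 1601 in Cre- at 8°C and 8.02 to 168.4 in BATdKO at 8°C. Brown adipocyte markers were detected in every library, with summed CPM of the 9 listed genes from 638.6 to 5717.

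The promoters of 4 measured genes are shown, 5′ to 3′ on the strand of the gene: Hdac4 because its values led to the choice of the list, Mef2d because its transcript rose with cold in both genotypes, and Mef2a and Hdac5 because a MEF2 consensus lies at their start. They are RefSeq sequences of GRCm38.p6, which held windows for all 7 listed genes, and positions count from the start site as 1 with no position 0. Capitals mark TGACG in Hdac4, the half-site of the cAMP response element (CRE) read by CREB, and the 10-letter MEF2 consensus in Mef2a and Hdac5.
Hdac4, chr1:92180292-92180591, minus strand, positions -250 to 50: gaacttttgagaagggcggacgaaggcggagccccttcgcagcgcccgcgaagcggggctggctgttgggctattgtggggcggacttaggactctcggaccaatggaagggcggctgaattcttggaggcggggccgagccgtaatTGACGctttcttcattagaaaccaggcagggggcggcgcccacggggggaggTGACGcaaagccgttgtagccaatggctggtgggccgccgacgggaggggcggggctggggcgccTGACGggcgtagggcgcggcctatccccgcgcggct
Mef2d, chr3:88142122-88142421, plus strand, positions -250 to 50: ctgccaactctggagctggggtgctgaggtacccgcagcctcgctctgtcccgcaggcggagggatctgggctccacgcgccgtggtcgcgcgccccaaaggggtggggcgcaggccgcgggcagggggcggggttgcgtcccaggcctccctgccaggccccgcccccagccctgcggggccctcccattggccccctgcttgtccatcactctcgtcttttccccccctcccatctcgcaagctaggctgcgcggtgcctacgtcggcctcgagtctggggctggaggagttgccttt
Mef2a, chr7:67372809-67372908, minus strand, positions -50 to 50: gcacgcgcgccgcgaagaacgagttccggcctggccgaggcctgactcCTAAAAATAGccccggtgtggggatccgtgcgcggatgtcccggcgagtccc
Hdac5, chr11:102230123-102230222, minus strand, positions -50 to 50: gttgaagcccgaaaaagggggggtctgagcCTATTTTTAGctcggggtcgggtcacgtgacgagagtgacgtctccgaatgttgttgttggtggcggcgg

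The Hdac4 window holds TGACG 3 times, starting at -103, -51 and 15. Of 32851 promoter windows of the same 300 bases, searched on both strands, 20.8% held TGACG at least once and 1.03% at least 3 times. The Hdac5 window holds it 2 times, starting at 8 and 17, and the Mef2a, Mef2c, Mef2d, Hdac7 and Hdac9 windows do not hold it. The full CRE, TGACGTCA, lay in 1.79% of windows and in 0 of the 13 windows of the listed genes. The MEF2 consensus was in 3.19% of all windows and, among the listed genes, at -20 to -11 in Hdac5 and at -2 to 8 in Mef2a, each matching on both strands. A TATA box match (TATAAA, either strand) was in 13.6% of all windows, in 1 of the 2 Hdac9 windows at -29 to -24 on the strand of the gene, and in 2 of the 3 Mef2c windows on the opposite strand. The RefSeq start of Hdac4 lies inside the GENCODE span of the gene and not at its outer end. A match is a run of letters in these windows and was not tied to binding.

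Over all 24 libraries pooled, Mef2a had the highest median of the 6 measured genes, with 20.3 to 42.2 CPM (median 30.5). Mef2c followed with a median of 17.1 CPM (11.1 to 113.4) and Hdac7 with 16.8 CPM (12.7 to 23.5), then Hdac5 with 10.8 CPM (7.36 to 14.6), Hdac4 with 9.13 CPM (4.60 to 11.4) and Mef2d with 8.67 CPM (2.73 to 19.0). Each gene's range overlapped that of the next in this order. The order differed between groups. At 8°C the mean of Mef2d was 13.1 CPM in Cre- and 11.9 CPM in BATdKO mice. These means were above those of Hdac4 (6.41 and 8.58 CPM) and Hdac5 (10.9 and 10.3 CPM). In Cre- mice at 30°C the mean of Mef2c, 41.4 CPM, was above that of Mef2a, 27.4 CPM. The Mef2c median there, 20.0 CPM, was below that of Mef2a, 27.9 CPM, since mice at 63.4 and 113.4 CPM raise the Mef2c mean. Single libraries held 7 to 119 reads for Hdac4 and 2 to 123 for Mef2d, so counting error is a sizeable part of a single mouse's value for these genes.

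**Figure D1:**
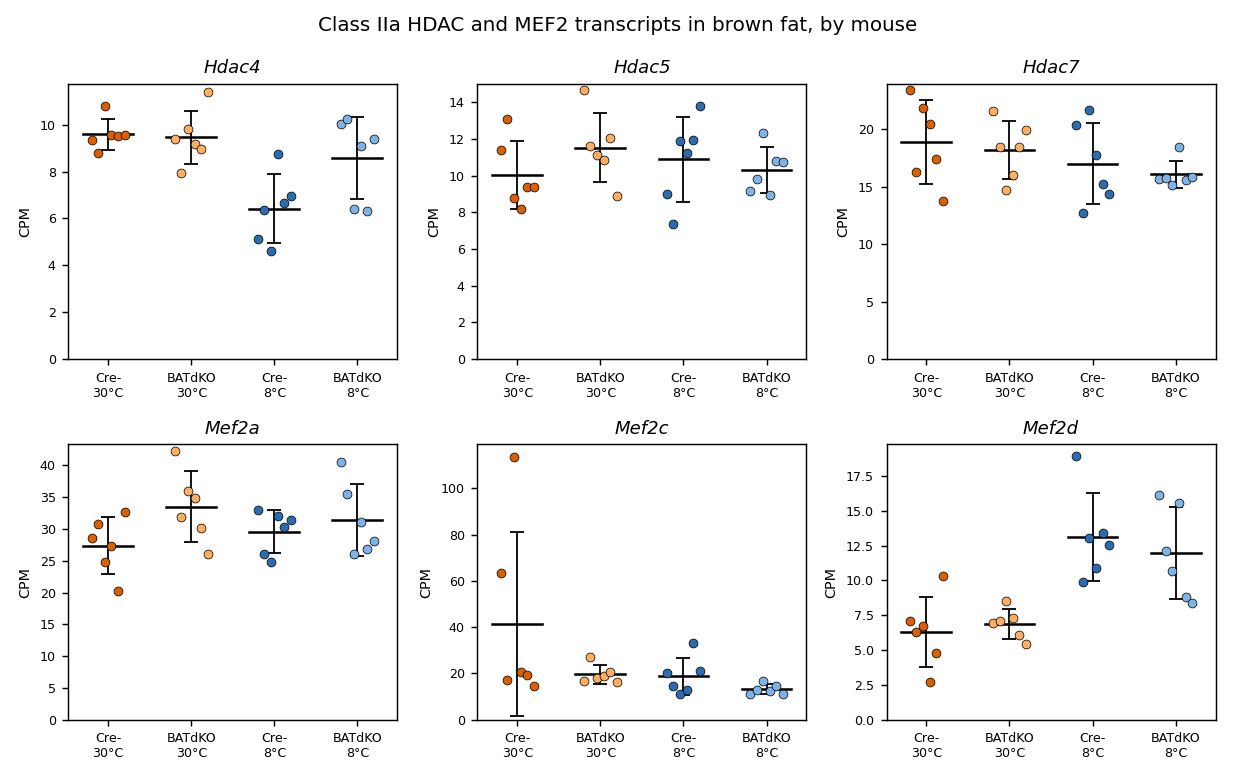
CPM (vertical axis, from 0) of the 6 measured genes in each mouse (points) of the 4 groups (horizontal axis), with the mean and SD of 6 mice as a line and bar. Mef2d stands higher in both 8°C groups, Hdac4 is lowest in Cre- mice at 8°C, and Mef2c has 2 Cre- mice at 30°C at 63.4 and 113.4 CPM, far above the rest.

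Among the class IIa HDACs, Hdac4 was lowest in Cre- mice in the cold. Hdac4 (ENSMUSG00000026313, chromosome 1, 91928779 to 92195699, minus strand of GRCm38) is a repressor of MEF2 known from cartilage and muscle. In Cre- mice at 30°C it had 9.37, 8.78, 10.8, 9.57, 9.52 and 9.57 CPM, and in Cre- mice at 8°C 5.14, 6.36, 4.60, 8.76, 6.64 and 6.96 CPM. The 2 sets of 6 did not overlap, though the highest cold mouse, 8.76 CPM, and the lowest warm one, 8.78 CPM, all but met. Overlap of groups, here and below, was examined for named genes only, and its share over all genes was not counted. The fitted log2 fold change was -0.56 (SE 0.14), a 1.47-fold lower level. In that comparison 9.15% of the 12485 tested genes passed the adjusted threshold of 0.1, and nothing is read from the position of Hdac4, which chose the list.

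In BATdKO mice Hdac4 had 9.41, 7.95, 9.83, 9.17, 8.98 and 11.4 CPM at 30°C and 10.0, 10.2, 6.42, 9.09, 6.32 and 9.39 CPM at 8°C. These groups overlapped, with a log2 fold change of -0.14 (SE 0.14). Of the 6 BATdKO mice in the cold, 4 lay above every Cre- mouse in the cold and the other 2, mice 3 and 5, lay within the Cre- range. The log2 fold change between genotypes was 0.39 (SE 0.15) at 8°C and -0.03 (SE 0.14) at 30°C, and the difference of the 2 cold responses was 0.41 (SE 0.20). Leaving out each mouse in turn moved the cold value in Cre- mice between -0.68 and -0.49 and the genotype value at 8°C between 0.31 and 0.51. Without the 2 libraries rich in muscle transcripts these values were -0.51 and 0.38. Hdac4 led to the choice of the list through these same values, so their steadiness lends them no support. As a share of the 3 measured class IIa transcripts, Hdac4 made up 18.9% ± 4.68 (SD, n = 6) in Cre- mice at 8°C, against 25.1% ± 2.80 in Cre- mice at 30°C, 24.3% ± 3.33 in BATdKO mice at 30°C and 24.4% ± 4.35 in BATdKO mice at 8°C. In bulk tissue, fewer cells that express a gene and less RNA per cell cannot be told apart.

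Hdac5 and Hdac7 did not pass the test in any comparison. Hdac5 (ENSMUSG00000008855, chromosome 11, 102194432 to 102230166, minus strand) is a signal-responsive partner of MEF2 that restrains cardiac growth genes. At 30°C it had 8.20 to 13.1 CPM, with a median of 9.38, in the Cre- group and 8.86 to 14.6 CPM, with a median of 11.4, in the BATdKO group. At 8°C the values were 7.36 to 13.8 CPM (median 11.6, Cre-) and 8.93 to 12.3 CPM (median 10.3, BATdKO). All 4 groups overlapped. The log2 fold changes between groups ran from -0.15 (SE 0.14; cold in BATdKO mice) to 0.15 (SE 0.14; genotype at 30°C), and the interaction was -0.23 (SE 0.20).

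Hdac7 (ENSMUSG00000022475, chromosome 15, 97792664 to 97844502, minus strand) is the class IIa member known from endothelium and thymocytes. At 30°C its CPM was 13.8 to 23.5 with a median of 18.9 (Cre-) and 14.8 to 21.6 with a median of 18.5 (BATdKO). At 8°C it was 12.7 to 21.7 with a median of 16.5 (Cre-) and 15.1 to 18.5 with a median of 15.7 (BATdKO). The 4 groups overlapped, and the BATdKO mice in the cold were the least spread. It was the most abundant class IIa transcript, with 46.0% to 49.5% of the 3 on average in each group. Its log2 fold change in the cold was -0.14 (SE 0.13, adjusted p = 0.640) in Cre- mice and -0.18 (SE 0.13, adjusted p = 0.545) in BATdKO mice, and the first was 0.07 without the 2 muscle-rich libraries. Of 10 endothelial markers, 4 rose with cold in Cre- mice (Kdr, Pecam1, Emcn and Eng), beside 5.57% of all genes. Emcn did not pass without the 2 muscle-rich libraries (adjusted p = 0.151, edgeR). The summed CPM of the 10 was 151.8 to 178.3 in Cre- at 30°C, 158.7 to 195.4 in BATdKO at 30°C, 184.8 to 241.8 in Cre- at 8°C and 179.0 to 243.1 in BATdKO at 8°C; the part of these cells in the Hdac7 level was not tested.

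The MEF2 genes differed from each other in the cold, where Mef2d rose in both genotypes. Of the 5 tested genes of the list, 2 passed in Cre- mice (Mef2d higher, Mef2c lower), beside 9.15% of all genes (5.57% higher and 3.59% lower), and 1 in BATdKO mice (Mef2d higher), beside 7.07% of all genes (3.76% higher). Mef2d (ENSMUSG00000001419, chromosome 3, 88142372 to 88172086, plus strand) is a broadly expressed MEF2 factor. In Cre- mice it had 7.08, 6.27, 6.76, 2.73, 4.83 and 10.3 CPM at 30°C and 19.0, 9.87, 13.0, 10.9, 13.4 and 12.5 CPM at 8°C. In the cold 5 of 6 mice lay above every warm mouse. The only overlap was with warm mouse 6, the Cre- library whose Tbl1xr1 level departs from its group mates. The log2 fold change was 0.92 (SE 0.19, adjusted p = 0.00259, edgeR), a 1.89-fold rise.

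In BATdKO mice Mef2d had 6.97, 7.07, 8.55, 7.30, 6.10 and 5.41 CPM at 30°C and 16.1, 12.1, 10.7, 15.6, 8.78 and 8.41 CPM at 8°C. Again 5 of 6 cold mice lay above every warm one, and the log2 fold change was 0.77 (SE 0.19, adjusted p = 0.0180, edgeR). The 2 cold responses differed by -0.15 (SE 0.27, adjusted p = 0.939), which does not show that they were equal. Mef2d passed in all 24 fits that each left out 1 mouse, with log2 fold changes of 0.79 to 1.10 in Cre- mice and 0.66 to 0.84 in BATdKO mice. Its share of the 3 measured MEF2 transcripts was 9.59% ± 4.96 (SD, n = 6) in Cre- and 11.5% ± 1.20 in BATdKO mice at 30°C, and 21.5% ± 3.96 and 20.9% ± 3.51 at 8°C.

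The Mef2c result in Cre- mice turned on 2 libraries. Mef2c (ENSMUSG00000005583, chromosome 13, 83504034 to 83667080, plus strand) is the MEF2 factor of developing heart and skeletal muscle, and is also found in endothelial and immune cells. In Cre- mice at 30°C it had 63.4, 17.2, 113.4, 20.5, 19.5 and 14.4 CPM, in Cre- mice at 8°C 20.1, 14.4, 11.1, 12.9, 33.1 and 21.1 CPM, in BATdKO mice at 30°C 16.9, 27.3, 18.0, 18.9, 20.5 and 16.2 CPM, and in BATdKO mice at 8°C 11.3, 12.7, 16.8, 12.5, 14.5 and 11.2 CPM. The 2 highest libraries are the 2 with most muscle transcripts, and mouse 5 of Cre- at 8°C, with 1601 CPM of muscle markers, had the third-highest Mef2c. Cold in Cre- mice gave a log2 fold change of -1.20 (SE 0.37, adjusted p = 0.0523, edgeR) with all 24 libraries and 0.13 (SE 0.22, adjusted p = 0.875) without those 2, so the call rests on them. It was also lost with robust dispersion estimates (adjusted p = 0.109) and with only the Cre- groups in the model (adjusted p = 0.164). The genotype value at 30°C went likewise from -1.13 (SE 0.37, adjusted p = 0.240) to 0.20 (SE 0.22, adjusted p = 0.912).

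In BATdKO mice, whose muscle marker sums reached at most 683.04 CPM, 5 of 6 cold mice had less Mef2c than every warm mouse. The log2 fold change there was -0.58 (SE 0.39, adjusted p = 0.492) in the model of all libraries. It was -0.58 (SE 0.20, adjusted p = 0.0870) without the 2 muscle-rich Cre- libraries and -0.58 (SE 0.14, adjusted p = 0.0197) with only the BATdKO groups in the model. The muscle marker sums of those groups were 31.6 to 683.04 CPM at 30°C and 8.02 to 168.4 CPM at 8°C, and their part in the Mef2c difference was not tested.

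**Figure D2:**
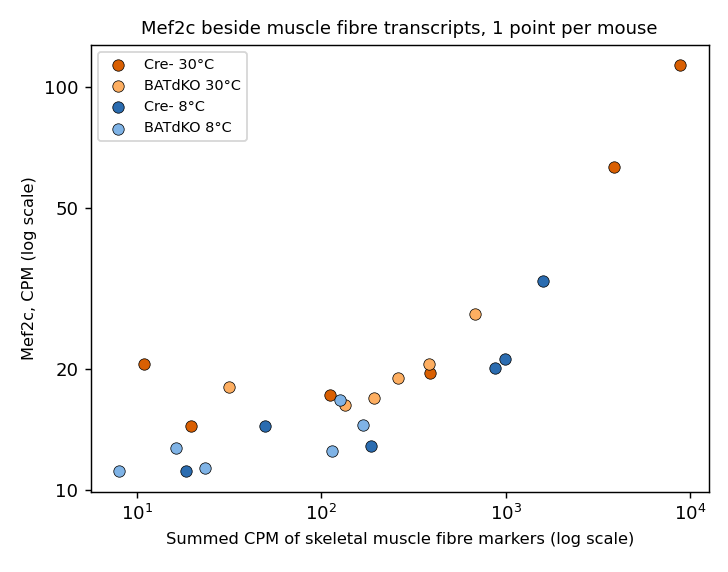
CPM of Mef2c (vertical log axis) against the summed CPM of 12 skeletal muscle fibre markers (horizontal log axis), 1 point for each of 24 mice coloured by group. Up to 683.04 CPM of muscle markers Mef2c stayed between 11.1 and 27.3 CPM; the 2 Cre- mice at 30°C with 3861 and 8865 CPM of markers had 63.4 and 113.4 CPM of Mef2c.

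Mef2a (ENSMUSG00000030557, chromosome 7, 67231163 to 67372858, minus strand), a factor of muscle and mitochondrial genes, did not pass in any comparison with all libraries. At 30°C it had 20.3 to 32.6 CPM with a median of 27.9 (Cre-) and 26.0 to 42.2 CPM with a median of 33.4 (BATdKO). At 8°C it had 24.7 to 32.9 CPM with a median of 30.8 (Cre-) and 26.0 to 40.5 CPM with a median of 29.6 (BATdKO). At 30°C, 3 BATdKO mice lay above every Cre- mouse, and the log2 fold change between genotypes was 0.28 (SE 0.12, unadjusted p = 0.0309, adjusted p = 0.414, edgeR). Without the 3 doubted libraries at 30°C (mouse 6 of both groups and the shallow Cre- mouse 4) it was 0.41 (SE 0.13, adjusted p = 0.0961). In that fit 5 brown adipocyte markers (Cidea, Dio2, Fabp4, Plin1 and Ucp1) were higher and 7 of 12 muscle fibre markers lower under the BATdKO label at 30°C, and their part in the Mef2a value was not tested.

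Between genotypes, 0 of the 5 tested genes passed with all libraries. At 8°C edgeR called 1.82% of all genes and, of the 5, 0 (0 at an unadjusted p under 0.05, beside 9.24% of all genes, and 0 by DESeq2). At 30°C edgeR called 0% of all genes and 0 of the 5, with Mef2a and Mef2c at an unadjusted p under 0.05, as were 10.4% of all genes, and 0 of the 5 passed by DESeq2. Without the 3 doubted libraries 546 genes passed at 30°C, Mef2a (higher) and Mef2c (lower, -1.38, SE 0.37, adjusted p = 0.0431) among them; both muscle-rich libraries stayed in that fit. The interaction of genotype and temperature, which asks whether the cold response differed, was called for 0.0961% of all genes and 0 of the 5 (0 at an unadjusted p under 0.05, beside 8.05% of all genes, and 0 by DESeq2).

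**Figure D3:**
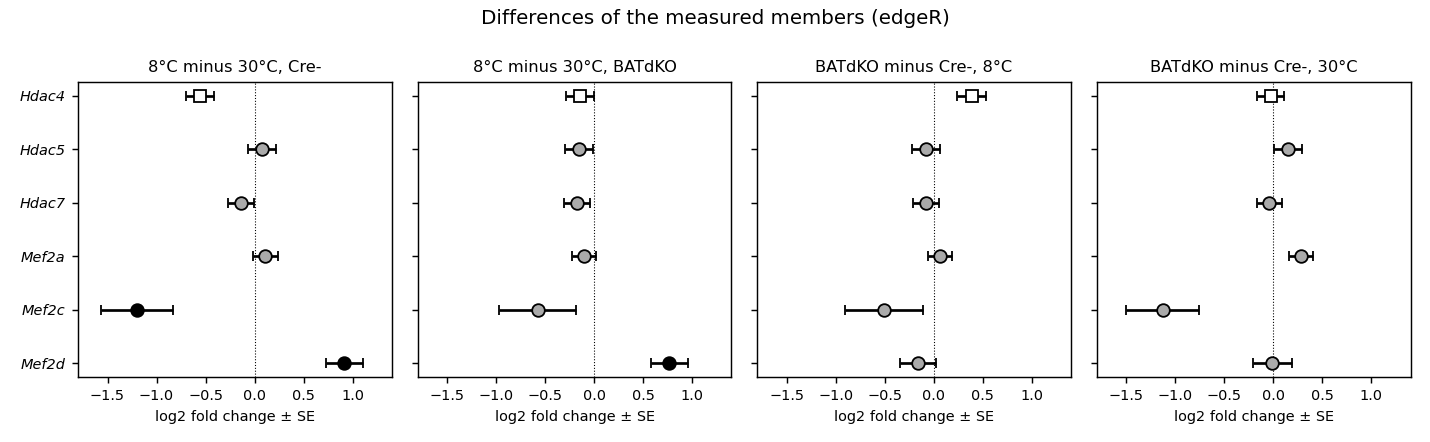
Log2 fold changes with their SE (horizontal axis, edgeR) of the 6 measured genes (rows) in 4 comparisons of 6 against 6 mice (panels). Filled black circles passed the adjusted threshold, grey circles did not, and white squares mark Hdac4, which was not tested; Mef2d is at 0.92 and 0.77 in the cold panels, and Mef2c at -1.20 in Cre- mice, a value that was 0.13 without 2 libraries.

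Among the kinases that act on class IIa HDACs, Sik1 rose in the cold in both genotypes. Of 18 listed kinases 15 were tested. In Cre- mice in the cold 2 rose and 0 fell (median log2 fold change -0.03, all genes -0.02), in BATdKO mice 1 rose and 1 fell (median 0.03, all genes -0.003), and between genotypes at 8°C 0 were higher and 3 lower under the BATdKO label (median -0.03, all genes 0). The shares of all genes called in these comparisons were, in this order, 9.15%, 7.07% and 1.82%, so the cold counts are read as no result about the kinases as a list. Between genotypes at 30°C and for the interaction 0 passed by edgeR or DESeq2, with 2 and 4 at an unadjusted p under 0.05. At 30°C 2 kinases, Camk2b (lower) and Sik2 (higher), passed without the 3 doubted libraries. For genotype in the cold, Sik3 missed the threshold with all libraries (log2 fold change 0.36, SE 0.10, adjusted p = 0.105, edgeR), and DESeq2 did not call it. Leaving out the 3 doubted libraries, or the 2 muscle-rich ones, brought Sik3 past the threshold, with more of it in BATdKO mice. The 3 lower kinases kept their calls in both of those fits. Sik1, a salt-inducible kinase whose gene is itself induced by cAMP, had at 30°C 1.10 to 1.99 CPM with a median of 1.50 (Cre-) and 0.641 to 1.95 CPM with a median of 1.13 (BATdKO), and at 8°C 3.01 to 8.87 CPM with a median of 6.54 (Cre-) and 1.96 to 5.66 CPM with a median of 3.16 (BATdKO). Every cold mouse lay above every warm mouse of its genotype, though in BATdKO mice the nearest values were 1.96 and 1.95 CPM. The log2 fold change in the cold was 2.01 (SE 0.27, adjusted p = 1.42e-05) in Cre- mice and 1.20 (SE 0.30, adjusted p = 0.0199) in BATdKO mice, and between genotypes at 8°C -1.03 (SE 0.25, adjusted p = 0.0383; edgeR). The last call was lost in 3 of 24 fits that left out 1 mouse (adjusted p up to 0.125), and the interaction, -0.81 (SE 0.42, adjusted p = 0.642), did not pass. Warm libraries held 1 to 21 Sik1 reads.

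Prkaa1, the alpha-1 catalytic subunit of AMP-activated kinase, had 7.02 to 10.2 CPM in Cre- and 4.22 to 6.53 CPM in BATdKO mice at 8°C, with no overlap and a log2 fold change of -0.79 (SE 0.17, adjusted p = 0.0128, edgeR). It rose with cold in Cre- mice by 0.62 (SE 0.17, adjusted p = 0.0218), with -0.13 (SE 0.18, adjusted p = 0.777) in BATdKO mice and an interaction of -0.75 (SE 0.24, adjusted p = 0.374) that passed without the 2 muscle-rich libraries. Camk2b, a subunit of CaM kinase II, had 12.3 to 16.4 CPM in Cre- and 4.79 to 9.09 CPM in BATdKO mice at 8°C, again without overlap (log2 fold change -0.90, SE 0.19, adjusted p = 0.0105). Camk2d, another subunit, fell with cold in BATdKO mice by 0.59 on the log2 scale (SE 0.16, adjusted p = 0.0291). Genes of this and the other lists were named by p among those that passed, so ranges without overlap add nothing to that test.

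Some corepressor partners differed between genotypes in the cold. Of 5 tested (Ncor1, Hdac3, Tbl1x, Tbl1xr1 and Gps2) 3 were higher and 0 lower under the BATdKO label at 8°C (median 0.29, all genes 0), beside 1.82% of all genes called. Of these 3, 2 are the deleted genes themselves. The third, Ncor1, the scaffold of the complex, had 203.6 to 221.3 CPM in Cre- and 246.1 to 286.2 CPM in BATdKO mice at 8°C, with no overlap and a log2 fold change of 0.29 (SE 0.07, adjusted p = 0.0496, edgeR; lost in 4 of 24 fits that left out 1 mouse, up to 0.115). Hdac3, the deacetylase of the complex, did not pass, with -0.25 (SE 0.19, adjusted p = 0.785). With cold 0 of the 5 passed in either genotype by edgeR or DESeq2, with 1 in each at an unadjusted p under 0.05. Between genotypes at 30°C edgeR called 0 of the 5 with all libraries, with 3 at an unadjusted p under 0.05 and 0 by DESeq2, and 3 (Ncor1, Tbl1x and Tbl1xr1, all higher) without the 3 doubted libraries.

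With all libraries, 0 of the 7 other deacetylases passed in any comparison by edgeR. In each cold comparison 2 had an unadjusted p under 0.05. DESeq2 called 1, Hdac2, higher with cold in Cre- mice. Without the 3 doubted libraries edgeR called 1, Hdac6, lower with cold in Cre- mice. With all libraries Hdac6 was at -0.42 (SE 0.16, adjusted p = 0.118) in Cre- and -0.43 (SE 0.16, adjusted p = 0.132) in BATdKO mice. Of 16 genes of nuclear import, export and dephosphorylation, the 14-3-3 genes Ywhab (0.26, SE 0.08, adjusted p = 0.0535) and Ywhag (0.30, SE 0.10, adjusted p = 0.0911) rose with cold in Cre- mice, and Prkaca, a catalytic subunit of protein kinase A, rose in BATdKO mice (0.46, SE 0.13, adjusted p = 0.0476). Among all genes 9.15% passed with cold in Cre- and 7.07% in BATdKO mice. The Ywhag call was lost without the 2 muscle-rich libraries (adjusted p = 0.320), and without the 3 doubted ones 4 genes rose in Cre- mice, Ppp2ca and Prkaca being added. Fits that left out 1 mouse lost the Ywhag call in 13 of 24, the Ywhab call in 4 and the Prkaca call in BATdKO mice in 3. Of 9 tested MEF2 coregulators and activating kinases 0 passed in any comparison by either tool with all libraries, with 0 or 1 at an unadjusted p under 0.05 in each; Map2k5 passed between genotypes at 30°C (higher in BATdKO) without the 3 doubted libraries.

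**Figure D4:**
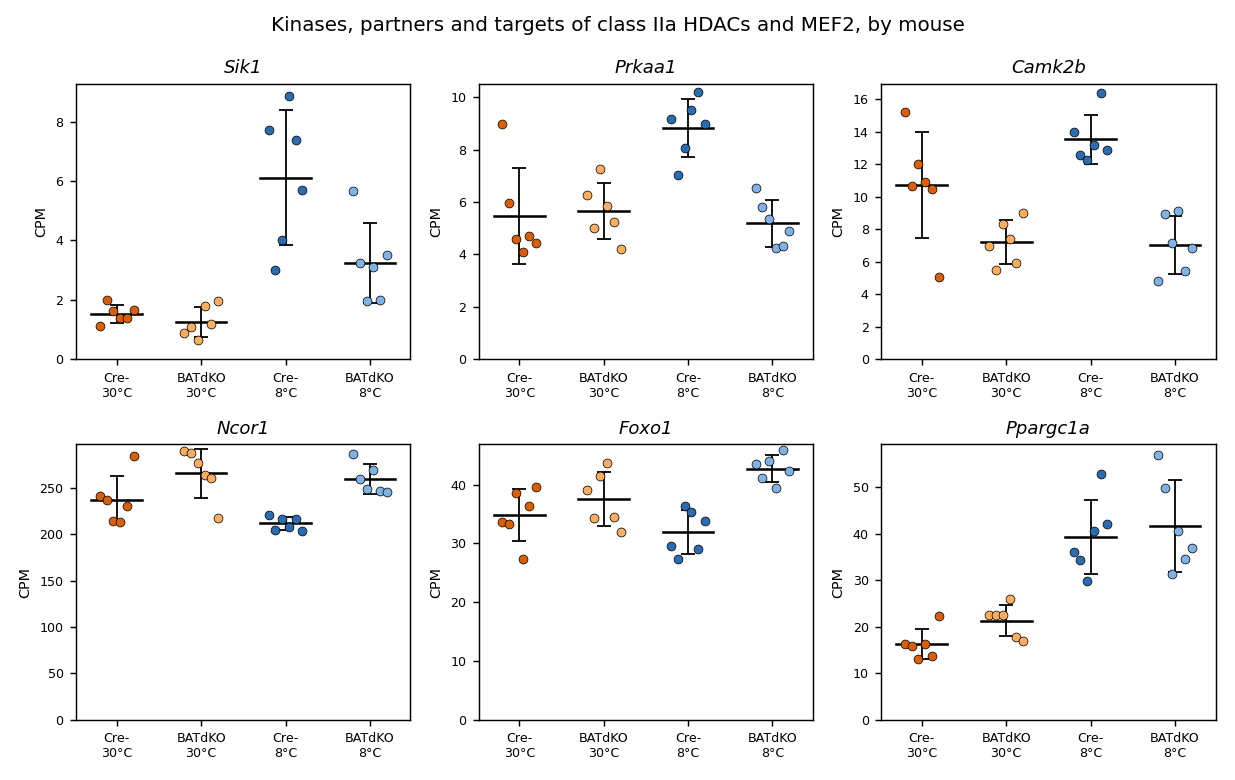
CPM (vertical axis, from 0) in each mouse (points) of the 4 groups for 3 kinases of class IIa HDACs (Sik1, Prkaa1, Camk2b), the corepressor Ncor1, and the targets Foxo1 and Ppargc1a, with the mean and SD of 6 mice as a line and bar. Sik1 and Ppargc1a are higher in both 8°C groups, and at 8°C Prkaa1 and Camk2b are lower and Ncor1 and Foxo1 higher under the BATdKO label without overlap.

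Known MEF2 targets moved in both directions in the cold. Among all genes 9.15% passed with cold in Cre- and 7.07% in BATdKO mice. Of 10 tested targets, 3 rose and 1 fell in Cre- mice and 2 rose and 1 fell in BATdKO mice. Their medians were -0.89 and -0.64 (all genes -0.02 and -0.003), and the list includes muscle genes such as Ckm, which did not pass (-2.64, SE 0.96, adjusted p = 0.107, in Cre- mice) and is also a muscle fibre marker. Without the 3 doubted libraries 3 rose and 6 fell in Cre- mice, the added falls being those of the muscle genes Ckm, Des, Myom1, Myom2 and Smyd1, and without the 2 muscle-rich libraries 3 rose and 1 fell. Ppargc1a, the coactivator of mitochondrial genes, rose by 1.27 (SE 0.16, adjusted p = 3.71e-06) in Cre- and 0.95 (SE 0.15, adjusted p = 0.000230) in BATdKO mice. Klf4, a zinc-finger factor, rose by 1.12 (SE 0.18, adjusted p = 0.000105) and 0.92 (SE 0.18, adjusted p = 0.00190), and its relative Klf2 by 0.65 (SE 0.17, adjusted p = 0.0210) in Cre- mice. Jun, an AP-1 subunit, fell by 0.80 (SE 0.19, adjusted p = 0.00908) and 0.93 (SE 0.18, adjusted p = 0.00219) on the log2 scale. Between genotypes, with all libraries, edgeR called 0 of the 10 at 8°C (3 at an unadjusted p under 0.05) and 0 at 30°C (7). DESeq2 called Jun, higher under the BATdKO label, in both. Without the 3 doubted libraries Jun was called higher at 8°C. In that fit 2 were higher (Jun and Ppargc1a) and 5 lower (Ckm, Des, Myom1, Myom2 and Smyd1) at 30°C. Without the 2 muscle-rich libraries Des and Smyd1 were lower at 8°C and 0 passed at 30°C.

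Foxo1, a FOXO factor that class IIa HDACs help to deacetylate in liver, had 39.5 to 45.9 CPM at 8°C under the BATdKO label against 27.4 to 36.4 CPM in Cre- mice, without overlap (log2 fold change 0.42, SE 0.09, adjusted p = 0.0127, edgeR). It was the only one of 6 tested FOXO and gluconeogenic genes to pass there (median 0.14), beside 1.82% of all genes. In the cold comparisons 9.15% of all genes passed in Cre- and 7.07% in BATdKO mice. With cold in BATdKO mice G6pc, which releases glucose from glucose-6-phosphate, rose by 0.25 (SE 0.08, adjusted p = 0.0629) and Foxo4 fell by 0.42 (SE 0.14, adjusted p = 0.0779) on the log2 scale, and in Cre- mice 0 of the 6 passed (2 at an unadjusted p under 0.05, 0 by DESeq2). Neither call in BATdKO mice was kept without the 3 doubted libraries (adjusted p = 0.115 for G6pc and 0.138 for Foxo4), and Foxo4 (lower) and Pck1 (higher) then passed in Cre- mice. The G6pc call was also lost with only the BATdKO groups in the model (adjusted p = 0.105). Fits that left out 1 mouse lost it in 8 of 24, and the Foxo4 call in BATdKO mice in 7.

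The 5 genes whose levels followed Hdac4 most closely over the 24 libraries, by the root mean square distance of log2 CPM centred on each gene's mean, were Lig1 (0.212), Rogdi (0.225), Slc12a9 (0.229), Ttc3 (0.231) and Sbf2 (0.237), among 8547 genes with a mean of at least 5 CPM and a median distance of 0.399. A gene that did not vary at all would lie at 0.321, the spread of Hdac4 about its own mean. Lig1, Rogdi and Slc12a9 had the group means in the order of Hdac4, and Ttc3 and Sbf2 had theirs highest in BATdKO mice at 30°C: Lig1 was at 0.18, 0.11, -0.29 and -0.001 in Cre- 30°C, BATdKO 30°C, Cre- 8°C and BATdKO 8°C, and Hdac4 at 0.20, 0.17, -0.39 and 0.02. None of the other 5 measured genes of the list was among these 5. The genes were picked for likeness over the same libraries, so a group order shared with Hdac4 follows from the choice. Among 8547 genes compared, absence from the nearest 5 says little about a gene.

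Of the marker lists, brown adipocyte genes showed 2 rises (Dio2 and Ucp1) and 1 fall (Adipoq) with cold in each genotype, and 1, Adrb3, lower under the BATdKO label at 8°C. Among all genes, 9.15% (Cre-) and 7.07% (BATdKO) passed with cold and 1.82% between genotypes at 8°C. Fits that left out 1 mouse lost the Adrb3 call in 7 of 24 (adjusted p up to 0.16, edgeR) and the Adipoq call in Cre- mice in 4. The Adipoq call in Cre- mice was lost without the 2 muscle-rich libraries (adjusted p = 0.119) and with only the Cre- groups in the model (adjusted p = 0.127), and there DESeq2 added a rise of Prdm16 and the fit without the 3 doubted libraries rises of Cidea, Fabp4 and Prdm16. Of 12 muscle fibre markers 2 passed, lower with cold in Cre- mice, Actn3 (-2.87, SE 0.88, adjusted p = 0.0517) and Myl1 (-1.85, SE 0.66, adjusted p = 0.0998), with values of 1.41 and 1.03 without the 2 muscle-rich libraries. DESeq2 called 0 of the 12 in that comparison. Fits that left out 1 mouse lost the Myl1 call in 18 of 24 and the Actn3 call in 3. Between genotypes 0 of the 12 passed with all libraries, but most had an unadjusted p under 0.05 (edgeR). At 8°C there were 11 (median log2 fold change -3.09, BATdKO minus Cre-), beside 9.24% of all genes. At 30°C there were 10 (median -3.1), beside 10.4% of all genes. With the 3 doubted libraries left out, 7 fell with cold in Cre- mice. With the 2 muscle-rich ones left out, 3 rose with cold in Cre- mice (Atp2a1, Myh1 and Myh2) and 7 were lower at 8°C under the BATdKO label. Smooth muscle genes gave 1 rise (Rgs5, of 5 tested, with cold in Cre- mice), endothelial genes 2 in BATdKO mice (Emcn and Kdr), and S100b, 1 of 2 tested Schwann cell markers, rose with cold in Cre- mice and was lower under the BATdKO label at 8°C. The 6 tested myeloid genes gave 0 calls by either tool (1 unadjusted p under 0.05, with cold in BATdKO mice), as did the 1 lymphocyte gene tested (Trbc2; unadjusted p under 0.05 with cold in Cre- mice and between genotypes at 30°C). The part of these cell types in the levels of the listed genes was not tested.

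Exons of Hdac4 overlap those of Gm26720 on the other strand, Hdac7 those of Slc48a1, Mef2a those of Lysmd4 and Mef2d those of 1700113A16Rik, and Hdac5 overlaps Mir8101 on its own strand. The sources used here do not say whether reads were counted by strand, so reads of these pairs cannot be told apart.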

How the data were processed

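Brown fat RNA of 24 mice was read with a 3′ tag kit. The deposited values are raw, unnormalized counts of 12615 genes, which the authors obtained from the forward reads by BBDuk trimming, STAR alignment (GRCm38) and Rsubread counting. The paper's analysis removed outliers that its text does not name, and all 24 libraries were used here. Mice are numbered 1 to 6 in a group in accession order, which pairs no mice. The sources name no batch, but library numbers form a block for each temperature, and p-values measure the spread between these mice.

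Counts were analysed with edgeR 4.0.16 (R 4.3.3, limma 3.58.1): TMM normalization, filterByExpr (12485 genes kept), a quasi-likelihood model with a mean per group over all 24 libraries, and Benjamini-Hochberg adjustment over all genes tested, threshold 0.1. The median log2 fold change over all genes was -0.02 to 0.008. Scripts were tested on simulated data. Alternatives were DESeq2 1.42.0, RLE normalization, no filter, robust dispersion, only the groups compared, leaving out each mouse or 3 doubted libraries, and, chosen after seeing the data, leaving out the 2 libraries with over 2000 CPM of muscle markers. Named genes are the members, both deleted genes, at most 4 genes per list and comparison by p, and the 5 genes most like Hdac4. A few genes named as not passing (Hdac3 and Ckm), Hdac2, and genes named only for an alternative fit were chosen after their values were seen. The members and lists were chosen with earlier results of these data known. The list of corepressor partners was analysed without 1 gene, which is not reported here. Positions and overlaps are from GENCODE vM21, promoter windows from RefSeq (GRCm38.p6).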

Additional observations from a re-analysis of the deposited data

Results flagged for a closer look

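Outlying mice were sought in 35 genes: the measured listed genes, both deleted genes and the genes named by p. Other genes named in the text were not examined. Among 140 groups of 6 mice (4 per gene), 12 held a mouse whose gap to its nearest neighbour exceeded 0.625 of the group's range, where chance alone flags about 1 group in 20. Of the listed genes 1 was flagged, Hdac7 at 18.5 CPM in BATdKO 8°C mouse 4, in which Camk2d, at 10.4 CPM, was flagged too. Mouse 6 of Cre- at 30°C stood apart in Tbl1xr1 (38.6 CPM), Ppargc1a (22.2 CPM), Jun (46.9 CPM) and Ucp1 (547.9 CPM). Mouse 6 of BATdKO at 30°C stood apart in Tbl1x (39.7 CPM) and S100b (20.0 CPM). Single flags fell on Klf2 in BATdKO 30°C mouse 1 (13.6 CPM), G6pc in BATdKO 30°C mouse 3 (78.5 CPM), Dio2 in BATdKO 8°C mouse 1 (53.2 CPM) and Eng in Cre- 30°C mouse 4 (5.47 CPM), the library of lowest depth.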

How the results depend on the processing

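No paired analysis was possible because the mouse numbers pair no mice between groups. Without the 2 muscle-rich libraries, log2 fold changes turned to 0.072 (Hdac7), 0.13 (Mef2c), 1.41 (Actn3) and 1.03 (Myl1) for cold in Cre- mice, 0.18 (Hdac7) and 0.20 (Mef2c) for genotype at 30°C and -0.71 (Mef2c) for the interaction; genes called were 684 for cold in Cre- mice, 353 for genotype at 8°C and 25 for the interaction, and members called 1 for cold in Cre- and 2 in BATdKO mice. Without the 3 doubted libraries, Mef2d turned to 0.19 for genotype at 30°C and Hdac7 to 0.0713 for the interaction; genes called were 1766 for cold in Cre- mice, 546 for genotype at 30°C (2 members) and 44 for the interaction. With only the groups compared, members called were 1 for cold in Cre- and 2 in BATdKO mice and genes called 477 for genotype at 8°C. Robust dispersion gave 1 member for cold in Cre- mice and 21 genes for the interaction, and DESeq2 92 genes for genotype at 30°C and 51 for the interaction. The causes of the shifts under these fits were not tested.

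Leaving out 1 mouse gave 791 to 1343 genes and 1 to 2 members for cold in Cre- mice, 574 to 1069 genes and 1 member in BATdKO mice, 138 to 276 genes and 0 members for genotype at 8°C, 0 to 369 genes and 0 to 1 member for genotype at 30°C, and 7 to 37 genes and 0 members for the interaction. Mef2c for cold in Cre- mice then ran from -1.44 to -0.59, past the threshold in 20 of 24 fits (adjusted p 0.0124 to 0.341, edgeR). Small values changed sign within -0.0032 to 0.17 (Hdac5, cold in Cre- mice), -0.17 to 0.0078 (Hdac5, genotype at 8°C), -0.11 to 0.0559 (Hdac7, genotype at 30°C), -0.10 to 0.18 (Mef2d, genotype at 30°C) and -0.14 to 0.0416 (Hdac7, interaction). In the shallowest library Hdac4 had 7, Hdac5 6 and Mef2d 2 reads.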
